A study of Mus musculus with 6 samples.

Results

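The genes described here are Rest, which encodes the repressor REST, the corepressor genes Rcor1, Rcor2, Rcor3, Kdm1a, Hdac1 and Hdac2, and the small CTD phosphatase genes Ctdsp1, Ctdsp2 and Ctdspl. They were chosen by symbol and not by a rule on measured values, though with earlier results of these data known. They make up 10 of the 24346 rows in each library. Each of the 10 genes has a row, and each had a mean of at least 1 FPKM, so that all were among the 13215 rows tested. FPKM counts the sequenced fragments of a gene per kilobase of its transcript, relative to the size of the library.

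RNA was measured in 6 stranded mRNA libraries labelled as mouse brain at embryonic day 17.5. The labels describe 3 libraries as a double knockout (DKO) of the microRNA genes miR-124a-1 and -2. The 3 control libraries are labelled miR-124a-1+/-, so by that label they are heterozygous for miR-124a-1 and are not wild type. A change of the third miR-124a gene is named in neither group. The strain, the sex, the litter and the deleted part of each gene were not given in the sources used here.

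REST is a zinc-finger protein that binds a DNA element called RE1 beside many neuronal genes and holds these genes down in other cells. One end of the protein brings in SIN3 with the histone deacetylases HDAC1 and HDAC2. The other end brings in a CoREST protein (encoded by Rcor1, Rcor2 or Rcor3) with KDM1A (also called LSD1), which removes methyl groups from lysine 4 of histone H3, and with the same deacetylases. The small CTD phosphatases remove phosphates from the tail of RNA polymerase II, work with REST at neuronal genes, and in human cells also remove phosphates that mark REST for breakdown. MicroRNAs cross this pathway: REST represses miR-124 genes, Ctdsp1 is a known target of miR-124, and each small CTD phosphatase gene carries a hairpin of the miR-26 family in an intron. In human cells REST and CoREST are known targets of the miR-9 pair.

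The mature sequences of the miR-26 family and of both arms of miR-9 are shown because these microRNAs are tied to the genes by position or by known pairing. They are from RefSeq (GRCm38.p6), written 5′ to 3′ with the seed, bases 2 to 8, in capitals. The reference used here has no entry for miR-124, which is therefore named only.
miR-26a-5p: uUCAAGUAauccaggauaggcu
miR-26b-5p: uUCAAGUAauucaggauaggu
miR-9-5p: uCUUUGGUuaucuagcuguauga
miR-9-3p: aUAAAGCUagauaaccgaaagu
The miR-26 sequences share one seed, and the arms of miR-9 have seeds of their own. In the GRCm38 annotation, Mir26b lies in intron 4 of 6 of Ctdsp1 (chromosome 1, 74394310 to 74394394). Mir26a-2 lies in intron 5 of 7 of Ctdsp2 (chromosome 10, 126995530 to 126995613), and Mir26a-1 in intron 5 of 7 of Ctdspl (chromosome 9, 119031796 to 119031885). All 3 hairpins are on the strand of their host gene.

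The tissue and age in the labels were set against marker genes. Photoreceptor genes were very high: Sag, the rod arrestin, measured 2841 to 3336 FPKM in DKO libraries and 3118 to 3594 FPKM in control libraries. The dividing-cell markers Mki67 and Top2a were at 0.127 to 0.341 FPKM in DKO libraries and 0.0765 to 0.310 FPKM in control libraries. Of 8 markers of embryonic cortex, 3 reached a mean of 1 FPKM. Neurod2 was the highest of them, at 4.94 to 5.34 FPKM in DKO libraries and 5.22 to 6.29 FPKM in control libraries. Tbr1 measured 0.741 to 1.12 FPKM in DKO libraries and 0.877 to 1.34 FPKM in control libraries. Neurod6 measured 0.493 to 1.08 FPKM in DKO libraries and 0.648 to 0.780 FPKM in control libraries, and Emx1 is listed at 0 in all 6 libraries. Markers of retinal bipolar cells had means of 52.4 to 159 FPKM over the 6 libraries. The levels as a whole therefore go against an embryonic brain in both groups and are high for markers of retina. The libraries are called here by their labels. The host transcript of miR-124a-1, Mir124a-1hg, averaged 492 ± 24.5 FPKM in DKO libraries and 480 ± 54.9 FPKM in control libraries (SD, n = 3 each). The transcript 2610100L16Rik, host of miR-124a-2, averaged 88.5 ± 16.2 FPKM in DKO libraries and 102 ± 18.9 FPKM in control libraries (SD, n = 3 each). Neither host was called (limma, Benjamini-Hochberg adjusted p 0.942 and 0.804). The 9 rows of the hairpins Mir124a-1 to Mir124a-3, Mir26a-1, Mir26a-2, Mir26b and Mir9-1 to Mir9-3 are listed at 0 in all 6 libraries, and an mRNA library captures such short RNAs poorly. These rows do not check the genotype labels. Short RNA rows took 1.76% to 6.36% of the summed FPKM, the most in control replicate 3.

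All 10 genes were expressed in all 6 libraries, over a range of about an order of magnitude per unit of transcript length. Hdac2 had the highest mean level over the 6 libraries, 46.8 ± 1.77 FPKM (SD, n = 6), followed by Kdm1a at 40.3 ± 2.21 FPKM. Hdac1 and Ctdsp2 came next at 32.0 ± 2.66 and 31.5 ± 2.01 FPKM, and their ranges overlapped, with Hdac1 above Ctdsp2 in 3 of 6 libraries. Rcor3 and Ctdsp1 followed at 16.03 ± 0.899 and 15.2 ± 0.946 FPKM, again with overlapping ranges. Below them stood Rcor1 at 11.8 ± 0.952 FPKM and Rcor2 at 9.63 ± 0.892 FPKM. Rest had 5.04 ± 0.363 FPKM, and Ctdspl was lowest at 3.66 ± 0.286 FPKM (SD, n = 6 for each gene). The ranges of the other neighbours in this order did not overlap. Among all tested rows, whose median level was 12.6 FPKM, Rest stood at percentile 24.2 and Hdac2 at percentile 87.1. The gene for the DNA-binding protein was thus present at a lower level than each corepressor gene described here.

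**Figure D1:**
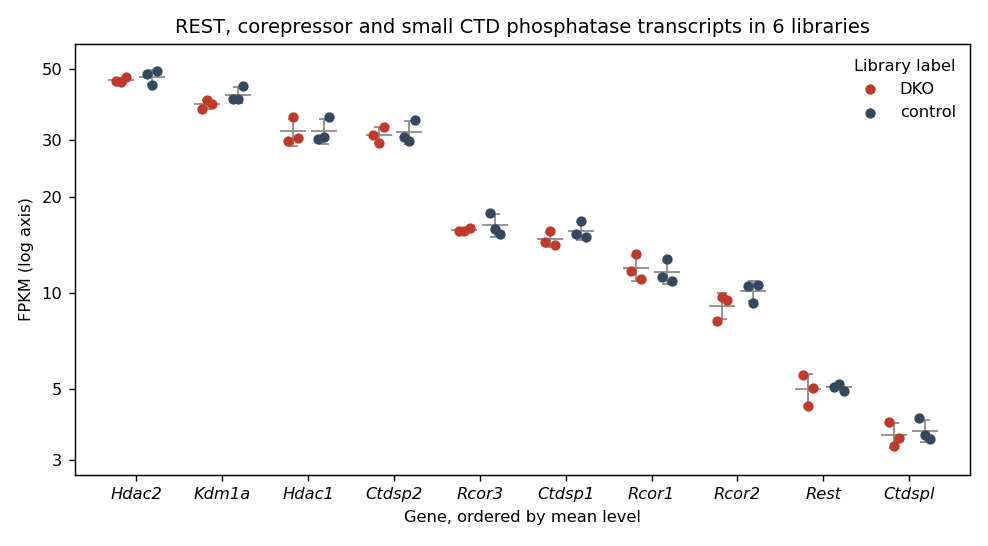
FPKM on a log axis of the 10 genes in order of mean level, with the 3 DKO libraries (red, left) and the 3 control libraries (dark blue, right) as points, the mean as a long bar and the SD as whiskers. Levels run between 46.8 FPKM for Hdac2 and 3.66 FPKM for Ctdspl, and the groups overlap for each gene except Kdm1a.

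The comparison asked whether these transcripts differ when both miR-124a genes are labelled as deleted. None of the 10 was called, and the groups overlapped for 9 of them. Past an adjusted p of 0.05 lay 0 of 10 genes (limma, Benjamini-Hochberg adjusted p 0.744 to 0.992), where 0.0227% of all tested rows passed, 0.0151% higher and 0.00757% lower in DKO libraries. At an unadjusted p under 0.05 there were also 0 of 10, against 7.88% of all tested rows. The groups did not overlap for 1 of 10 genes, Kdm1a, against 13.9% of all tested rows. Log2 fold changes were above 0 for Rcor1 and below 0 for the other 9, of which Hdac1 turned to 0.0090 with quantile normalization and to 0.058 with arrayWeights. Their median was -0.034, while the median of all tested rows was -0.0016 and 49.5% of those lay above 0. Fold changes here are DKO minus control on the scale of log2(FPKM + 1), which understates changes of low genes. In these bulk libraries fewer cells of a type and less RNA per cell cannot be told apart.

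Rest (GRCm38 chromosome 5, 77265491 to 77286432) had 5.54, 4.43 and 5.05 FPKM in DKO libraries, against 5.09, 5.18 and 4.95 FPKM in control libraries. The highest and the lowest value were both in DKO libraries, and the control values lay between them. The log2 fold change was -0.02 and its 95% confidence interval ran from -0.24 to 0.20 (limma, Benjamini-Hochberg adjusted p = 0.972). On the FPKM + 1 scale this interval runs from -15.2% to 14.7%, so a larger difference in either direction lies outside it. The tested genes whose deviations from their own mean were most like those of Rest were Zc2hc1c, Fam46a (of a family of poly(A) polymerases) and Tex10 (of a complex in ribosome maturation). Fam46a stood near the filter of 1 FPKM. In the order named, these genes measured 3.08 to 3.79, 0.932 to 1.33 and 7.99 to 9.67 FPKM over the 6 libraries. Their root mean square differences from Rest were 0.017 to 0.021 over the 6 libraries on the log2(FPKM + 1) scale, where the deviations of Rest had a root mean square of 0.080. Like Rest, all 3 were highest in DKO replicate 1 and lowest in DKO replicate 2, which follows from picking them for their likeness to Rest.

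The CoREST genes encode the scaffold between REST and the enzymes. Rcor1 (chromosome 12, 111039351 to 111115901) had 11.7, 13.2 and 11.1 FPKM in DKO libraries, against 11.2, 12.7 and 10.9 FPKM in control libraries. In both groups replicate 2 was highest, and the groups overlapped. Its log2 fold change was 0.04 with a 95% interval of -0.16 to 0.24 (limma, Benjamini-Hochberg adjusted p = 0.943). Rcor2 (chromosome 19, 7267325 to 7275225), known as the CoREST gene of neural progenitors in the mouse cortex, had 8.18, 9.73 and 9.49 FPKM in DKO libraries. In control libraries it had 10.5, 9.29 and 10.6 FPKM. DKO replicate 1 was lowest, and control replicate 2 lay among the DKO values. The difference of -0.14 was the largest in size among the 10 genes, with a 95% interval of -0.34 to 0.07 (limma, Benjamini-Hochberg adjusted p = 0.766). Rcor3 (chromosome 1, 192098546 to 192138062), whose protein lets KDM1A bind but helps it less on nucleosomes in vitro, had 15.7, 15.7 and 15.9 FPKM in DKO libraries. In control libraries it had 17.8, 15.8 and 15.3 FPKM, a wider spread in which control replicate 1 stood above the rest. Its log2 fold change was -0.04 with a 95% interval of -0.20 to 0.11 (limma, Benjamini-Hochberg adjusted p = 0.920). An annotated antisense gene, Gm10516, shares 336 exon bases with Rcor3. It averaged 3.27 ± 0.653 FPKM in DKO libraries and 3.31 ± 1.05 FPKM in control libraries (SD, n = 3 each). Whether strand was used in counting is not stated, so reads of Rcor3 and Gm10516 may not be separated.

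Among the chromatin enzymes, Kdm1a (chromosome 4, 136550540 to 136602723), the histone demethylase gene, had 37.6, 40.2 and 38.9 FPKM in DKO libraries. In control libraries it had 40.3, 40.3 and 44.2 FPKM. All 3 DKO values lay below all 3 control values, although the highest DKO value and the lowest control value were 40.2 and 40.3 FPKM. Of all tested rows, 6.95% had DKO values entirely below the control values. The log2 fold change of Kdm1a was -0.09 with a 95% interval of -0.22 to 0.03 (limma, unadjusted p = 0.125, Benjamini-Hochberg adjusted p = 0.744). Hdac1 (chromosome 4, 129516104 to 129542713) had 29.9, 35.5 and 30.5 FPKM in DKO libraries, against 30.2, 30.7 and 35.4 FPKM in control libraries. One library in each group stood above the other two, DKO replicate 2 and control replicate 3. Its log2 fold change was -0.01 with a 95% interval of -0.20 to 0.19 (limma, Benjamini-Hochberg adjusted p = 0.992). Hdac2 (chromosome 10, 36974544 to 37001889) had 46.0, 45.5 and 47.2 FPKM in DKO libraries, against 48.3, 44.7 and 49.3 FPKM in control libraries. The DKO values lay within the control range, and the log2 fold change was -0.04 with a 95% interval of -0.15 to 0.08 (limma, Benjamini-Hochberg adjusted p = 0.915). Its spread within groups was the smallest of the 10 genes, a residual SD of 0.055 on the log2(FPKM + 1) scale, against a median of 0.10 over all tested rows.

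The small CTD phosphatase genes include the known miR-124 target. Ctdsp1 (chromosome 1, 74391509 to 74397285) had 14.5, 15.6 and 14.1 FPKM in DKO libraries, against 15.3, 16.8 and 14.9 FPKM in control libraries. The highest value was in a control library and the lowest in a DKO library, and the groups overlapped. The log2 fold change was -0.08 with a 95% interval of -0.24 to 0.08 (limma, Benjamini-Hochberg adjusted p = 0.803). Its upper bound corresponds to 5.39% more FPKM + 1 in DKO libraries. Ctdsp2 (chromosome 10, 126978717 to 126999975) had 31.2, 29.5 and 33.1 FPKM in DKO libraries, against 30.7, 29.9 and 34.7 FPKM in control libraries. The ranges overlapped, with control replicate 3 above all DKO values and DKO replicate 2 below all control values. The log2 fold change was -0.02 with a 95% interval of -0.19 to 0.14 (limma, Benjamini-Hochberg adjusted p = 0.961). Ctdspl (chromosome 9, 118926453 to 119043998), known also as a candidate tumour suppressor in human, had 3.96, 3.32 and 3.53 FPKM in DKO libraries. In control libraries it had 4.05, 3.59 and 3.49 FPKM, and the lowest value was in a DKO library and the highest in a control library. Its log2 fold change was -0.03 with a 95% interval of -0.26 to 0.20 (limma, Benjamini-Hochberg adjusted p = 0.960).

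**Figure D2:**
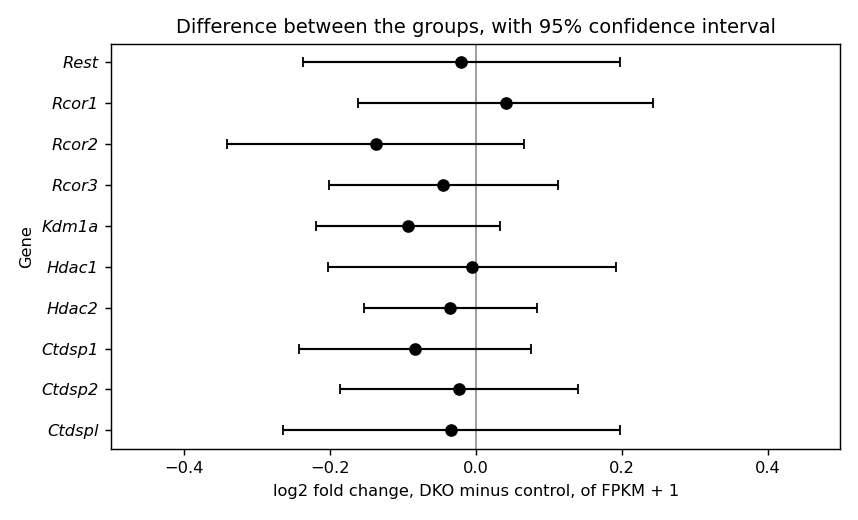
Log2 fold change of FPKM + 1, DKO minus control, of the 10 genes (points) with the 95% confidence interval from limma (bars), 3 libraries per group. Each interval contains 0, and the bounds lie between -0.34 for Rcor2 and 0.24 for Rcor1.

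Within each family the shares of the paralogs differed between the groups by less than the spread between libraries. Of the summed FPKM of the CoREST genes, Rcor3 gave 42.8% ± 1.92 in DKO libraries and 42.8% ± 1.89 in control libraries (SD, n = 3 each). Rcor1 gave 32.5% ± 1.97 in DKO libraries and 30.5% ± 2.75 in control libraries, and Rcor2 gave 24.7% ± 1.54 and 26.6% ± 2.1 in the same order of groups (SD, n = 3 each). The CoREST sum was 36.9 ± 1.57 FPKM in DKO libraries and 38.1 ± 1.43 FPKM in control libraries (SD, n = 3 each). Ctdsp2 made up most of the small CTD phosphatase sum, 63.0% ± 2.14 in DKO libraries and 62.1% ± 3.01 in control libraries (SD, n = 3 each). Ctdspl made up 7.27% ± 0.624 in DKO libraries and 7.27% ± 0.770 in control libraries (SD, n = 3 each). Hdac2 gave 59.2% ± 2.59 of the Hdac1 and Hdac2 sum in DKO libraries and 59.7% ± 1.68 in control libraries (SD, n = 3 each). For each paralog the difference in mean share was smaller than the larger SD of the groups.

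**Figure D3:**
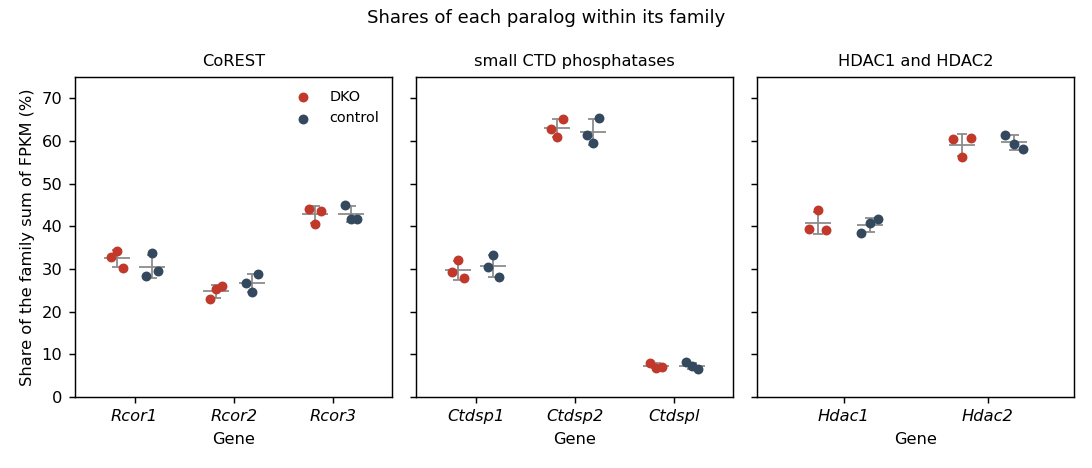
Share of each paralog in the summed FPKM of its family (%), for the CoREST genes, the small CTD phosphatases and the deacetylases, with DKO libraries (red, left) and control libraries (dark blue, right) as points and the mean and SD as bars. Rcor3, Ctdsp2 and Hdac2 have the largest share in both groups, with means of 42.8%, 63.0% and 59.2% in DKO libraries.

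A separate row inside Ctdsp2 differed far more than Ctdsp2 itself. Mir546, a row annotated as a microRNA gene of 121 bases (GRCm38 chromosome 10, 126998440 to 126998560), lies wholly within the 3′ UTR of Ctdsp2 on the same strand. It had 765, 525 and 933 FPKM in DKO libraries, against 220, 233 and 259 FPKM in control libraries. All 3 DKO values lay above all 3 control values, at 741 ± 205 FPKM in DKO libraries and 237 ± 20.1 FPKM in control libraries (SD, n = 3 each). The log2 fold change was 1.60 with a 95% interval of 1.18 to 2.03, and the row missed the threshold (limma, Benjamini-Hochberg adjusted p = 0.0669). It passed in 2 of 16 alternatives, with quantile normalization and without DKO replicate 2, and the adjusted p ran from 0.00946 to 0.355 over the 16 (limma, Benjamini-Hochberg). Reads from this stretch of Ctdsp2 and reads from a product of Mir546 cannot be told apart. The row is shorter than most fragments of an mRNA library, and FPKM of such short rows depends strongly on the length correction used. The row was named after its values were seen.

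The 3′ UTRs were searched for 7-base words that pair with bases 2 to 8 of the microRNAs printed above. For each gene the longest 3′ UTR in the annotation was taken. The word TACTTGA for miR-26 was found in 3 of 10 genes (Rest, Rcor1 and Ctdsp2), and in 11.6% of 12163 tested genes with a 3′ UTR. The word ACCAAAG for miR-9-5p was found in Rest, Rcor3 and Ctdsp2, and in 14.5% of the tested genes. The word AGCTTTA for miR-9-3p was found in Ctdsp2 alone among the 10, and in 13.4% of the tested genes. The 3′ UTRs of the 10 genes had a median length of 2264 bases, against 1258 bases for the tested genes, and longer UTRs hold more words. The matches among the 10 genes are shown because miR-26 and miR-9 are microRNAs tied to this pathway. They are written 5′ to 3′ on the strand of the gene with the matching word in capitals, from GRCm38.
Rest, miR-26, chr5:77283318-77283340: attggcttagtaaatTACTTGAa
Rest, miR-9-5p, chr5:77286161-77286183: acttttctgaggcaaACCAAAGg
Rcor1, miR-26, chr12:111114696-111114718: cacgtaagcacctgtTACTTGAa
Rcor3, miR-9-5p, chr1:192098598-192098620: ttttgagagatctacACCAAAGt
Ctdsp2, miR-26, chr10:126997551-126997573: cccaagtgttgctctTACTTGAt
Ctdsp2, miR-9-5p, chr10:126998300-126998322: ttggttctccatgtgACCAAAGc
Ctdsp2, miR-9-3p, chr10:126996798-126996820: tgctgtgagctactgAGCTTTAc
Rcor3 is on the minus strand and the others are on the plus strand. The miR-26 words of Rest and Rcor1 are each followed by an A. Ctdsp2 is the host of Mir26a-2 and also holds a miR-26 word. The transcripts C130071C03Rik and AI854517, which carry Mir9-2 and Mir9-3, averaged 1.22 ± 0.0297 and 1.31 ± 0.294 FPKM in DKO libraries. In control libraries they averaged 1.46 ± 0.440 and 1.21 ± 0.0901 FPKM (SD, n = 3 each), and neither was called (limma, Benjamini-Hochberg adjusted p 0.870 and 0.950).

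Partner genes of the same complexes showed no called difference either. In 6 lists of related phosphatases, complex subunits, cofactors and turnover genes, 74 genes were tested, with 36 log2 fold changes above 0 and 38 below. Their median was -0.0069, and 0 of 74 were called (limma, Benjamini-Hochberg adjusted p 0.505 to 0.992), against 0.0227% of all tested rows. An unadjusted p under 0.05 was found for 1 of 74 or 1.35%, against 7.88% of all tested rows. The groups did not overlap for 9 of 74 or 12.2%, close to the 13.9% of all tested rows. The related phosphatase list had 1 gene above 0 and 6 below, with a median of -0.07. Its gene of smallest p was Timm50, a subunit of the mitochondrial import machinery with a domain like that of the small CTD phosphatases. Timm50 had 18.9, 18.7 and 16.9 FPKM in DKO libraries, against 21.9, 20.1 and 21.9 FPKM in control libraries. The groups did not overlap, and the log2 fold change was -0.22 (limma, unadjusted p = 0.0113, Benjamini-Hochberg adjusted p = 0.505). Ctdnep1, a phosphatase of the nuclear envelope, averaged 42.4 ± 1.71 FPKM in DKO libraries and 44.8 ± 0.629 FPKM in control libraries (SD, n = 3 each).

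The complexes around KDM1A, SIN3 and the deacetylases varied about 0. In the KDM1A-CoREST partner list, 10 of 15 genes were above 0 with a median of 0.02. Its genes of smallest p were Mier2, which encodes a deacetylase-binding protein (log2 fold change -0.10), and Hmg20b, which encodes a subunit of the complex (-0.13). In the SIN3 list 3 of 15 genes were above 0, with a median of -0.05. Sap30, a subunit gene of low level, had -0.37 with a 95% interval of -0.93 to 0.18, and the scaffold gene Sin3b had -0.07. In the NuRD list, the other large complex of HDAC1 and HDAC2, 9 of 13 genes were above 0 with a median of 0.05. The remodeller gene Chd4 averaged 80.4 ± 2.28 FPKM in DKO libraries and 75.6 ± 1.59 FPKM in control libraries (SD, n = 3 each), without overlap. Mbd2, which encodes a reader of methylated DNA, had a log2 fold change of -0.14. Among REST cofactors and chromatin readers 9 of 12 genes were above 0, with Suz12, of the Polycomb complex PRC2, at -0.15 and the remodeller gene Smarca4 at 0.09. Each gene named in these lists had an adjusted p of 0.653 or more (limma, Benjamini-Hochberg).

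Genes that set the stability and splicing of REST were also close between groups. Of 12 such genes 4 were above 0 and 8 below, with a median of -0.02. The chaperone gene Hsp90ab1 had 355, 370 and 373 FPKM in DKO libraries, against 344, 345 and 353 FPKM in control libraries, without overlap. Csnk1a1, which encodes a kinase that phosphorylates REST, averaged 96.3 ± 1.15 FPKM in DKO libraries and 101 ± 3.07 FPKM in control libraries (SD, n = 3 each), also without overlap. Both missed the threshold (limma, Benjamini-Hochberg adjusted p 0.734 and 0.769). Srrm4 and Srrm3 encode splicing factors known to make a truncated form of REST in neurons, and both were named after their values were seen. Srrm4 averaged 34.6 ± 0.466 FPKM in DKO libraries and 35.2 ± 2.43 FPKM in control libraries (SD, n = 3 each). Srrm3 averaged 22.8 ± 1.61 FPKM in DKO libraries and 24.2 ± 1.54 FPKM in control libraries (SD, n = 3 each). Both were at several times the level of Rest itself, and FPKM per gene does not separate the splice forms of Rest.

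**Figure D4:**
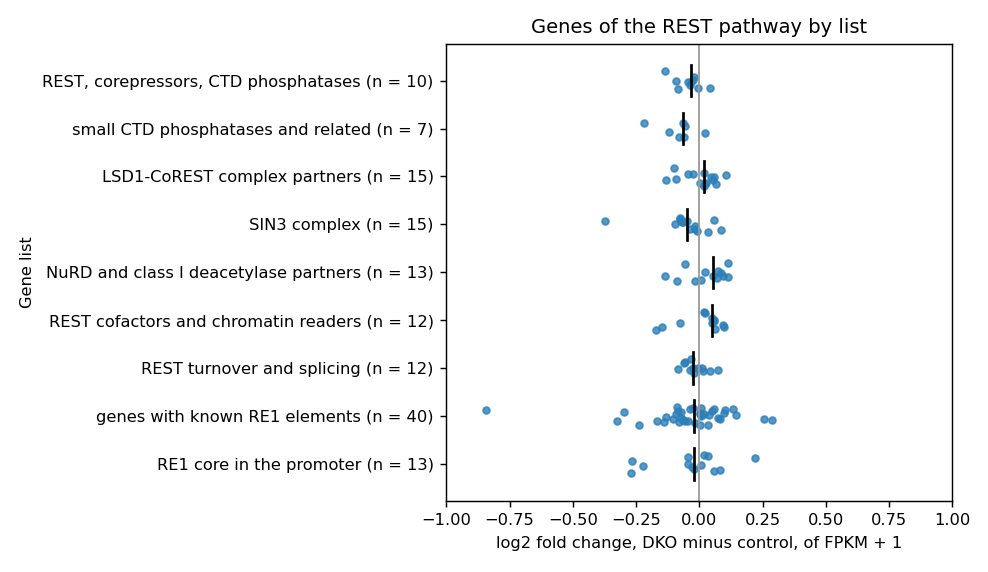
Log2 fold change of FPKM + 1, DKO minus control, for each tested gene (points) of the 10 genes, of 7 pathway lists and of the genes with an RE1 core in the promoter, with the list median as a black bar. The partner lists lie close to 0, and the genes with known RE1 elements are spread most widely, with Vgf at -0.84.

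Log2 fold changes of genes with known RE1 elements ran from -0.84 to 0.29, a wider span than in the partner lists, with none called. The list holds 43 neuronal genes, of which 40 were tested. Log2 fold changes were above 0 for 19 and below 0 for 21, with a median of -0.02. The count past the threshold was 0 of 40 (limma, Benjamini-Hochberg adjusted p 0.118 to 0.996). At an unadjusted p under 0.05 there were 9 genes or 22.5%, where 7.88% of all tested rows had such a p. The groups did not overlap for 17 genes or 42.5%, 7 with higher and 10 with lower DKO values, where 13.9% of all tested rows did not overlap (6.96% higher and 6.95% lower). The list was chosen with earlier results of these data known, and several of its genes are expressed by the same neurons.

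The RE1 genes of smallest p were lower in DKO libraries. Vgf, a precursor of secreted neuropeptides, had 5.90, 4.86 and 6.56 FPKM in DKO libraries, against 10.2, 11.98 and 11.1 FPKM in control libraries. The groups were well apart, and the log2 fold change was -0.84 with a 95% interval of -1.09 to -0.59 (limma, Benjamini-Hochberg adjusted p = 0.118). Nefm, the medium neurofilament gene, had 67.0, 64.9 and 66.4 FPKM in DKO libraries, against 81.1, 87.0 and 76.6 FPKM in control libraries. Nefh, the heavy neurofilament gene, had 36.6, 35.4 and 36.2 FPKM in DKO libraries, against 42.2, 44.8 and 41.0 FPKM in control libraries. Both sets were free of overlap and tighter in DKO libraries, with log2 fold changes of -0.30 for Nefm and -0.24 for Nefh (limma, Benjamini-Hochberg adjusted p 0.244 and 0.304). Calb1, which encodes a calcium-binding protein, had 26.2, 27.0 and 26.6 FPKM in DKO libraries, against 31.1, 37.1 and 33.0 FPKM in control libraries. Its log2 fold change was -0.33 (limma, Benjamini-Hochberg adjusted p = 0.304). On the other side, and named after their values were seen, stood the sodium channel subunit gene Scn3b and Olfm3, which encodes a secreted olfactomedin protein. Scn3b had 17.4, 17.3 and 16.1 FPKM in DKO libraries, against 13.8, 13.8 and 14.5 FPKM in control libraries, and Olfm3 averaged 7.43 ± 0.316 FPKM in DKO libraries and 5.91 ± 0.194 FPKM in control libraries (SD, n = 3 each). Their log2 fold changes were 0.26 and 0.29 (limma, Benjamini-Hochberg adjusted p 0.363 and 0.412).

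Markers of retinal cell classes, some of which express these neuronal genes, were compared in the same fit, and none was called. Of 6 amacrine and ganglion markers 0 passed the threshold (limma, lowest Benjamini-Hochberg adjusted p = 0.196), against 0.0227% of all tested rows. An unadjusted p under 0.05 was found for 4 of the 6, against 7.88% of all tested rows. Tfap2b, a factor of amacrine cells, was at 72.8 ± 2.08 FPKM in DKO libraries and 60.9 ± 0.127 FPKM in control libraries (SD, n = 3 each). The summed level of that list was 314 to 323 FPKM in DKO libraries and 281 to 297 FPKM in control libraries, and Pou4f1, a ganglion cell factor, was lower at 8.11 to 8.89 FPKM in DKO libraries and 9.40 to 10.01 FPKM in control libraries. The sum of 5 bipolar markers was 438 to 452 FPKM in DKO libraries and 461 to 470 FPKM in control libraries. Of the bipolar markers 0 of 5 were called (limma, lowest Benjamini-Hochberg adjusted p = 0.518). The sums of the photoreceptor, Müller glia and astrocyte, microglia, endothelium, embryonic cortex and dividing-cell lists overlapped between groups. Single markers within them did not: Cldn5 and Pecam1, junction genes of endothelium, had lower values in all DKO libraries than in all control libraries, with log2 fold changes of -0.22 and -0.35. Of the 5 endothelium markers 4 were below 0, and Kdr, the one of highest level, was at 0.11. Nrl, a photoreceptor factor, also lay lower without overlap, with a log2 fold change of -0.13. Cldn5, Pecam1 and Nrl missed the threshold (limma, Benjamini-Hochberg adjusted p 0.507, 0.650 and 0.590 in that order). Aurkb, a dividing-cell marker, did not overlap either, at 0 to 0.0667 FPKM in DKO libraries and 0.144 to 0.789 FPKM in control libraries. Its mean was below the filter of 1 FPKM, so it was not tested. The part of cell composition in the values of the RE1 genes was not tested.

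Promoters were searched for a core of the RE1 element, AGCACCNNGGACAG, on both strands, from 250 bases before to 50 after each start in RefSeq (GRCm38.p6). The core was counted in 16 of 27025 genes with a promoter entry, or 0.0592%. Matches on a single chromosome were left out of every count of the core, while its genes stay among the 27025. Of the 10 genes described here 8 had an entry and 0 held the core, which says only that these letters are not in this window. Of the listed RE1 genes 27 had an entry, and among these only Gria2 held a core that was counted. A listed gene on the chromosome left out could not be counted, whatever its promoter holds. Known RE1 elements can lie outside such a window or differ from the core. Windows around the core are shown for some genes on both sides of 0, picked with their values known. The tested gene of lowest log2 fold change, Lhx3 at -0.27, is not among them. The windows are written 5′ to 3′ on the strand of the core, with the core in capitals.
Gria2, chr3:80802988-80803009, plus strand: ttttAGCACCGCGGACAGcgct
Gad2, chr2:22622160-22622181, plus strand: tggtAGCACCCTGGACAGcgcg
Scamp5, chr9:57468194-57468215, minus strand: atttAGCACCACGGACAGctcc
Hrh3, chr2:180104573-180104594, plus strand: gggcAGCACCACGGACAGcgcc
Ttc9b, chr7:27653938-27653959, minus strand: catcAGCACCGGGGACAGcgcg
Of the genes counted with the core 13 were tested, 6 above 0 and 7 below, with a median log2 fold change of -0.02. The count past the threshold was 0 of 13 (limma, Benjamini-Hochberg adjusted p 0.467 to 0.987), against 0.0227% of all tested rows. An unadjusted p under 0.05 was found for 3 of 13, Gad2, Hrh3 and Ttc9b, against 7.88% of all tested rows. The groups did not overlap for 3 of 13, Gad2, Gria2 and Ttc9b, against 13.9% of all tested rows. Gad2, which encodes a GABA-synthesizing enzyme of amacrine cells and other inhibitory neurons, had 16.1, 16.03 and 15.6 FPKM in DKO libraries, against 14.5, 13.3 and 12.9 FPKM in control libraries. Hrh3, a histamine receptor gene, averaged 8.54 ± 0.858 FPKM in DKO libraries and 10.1 ± 0.880 FPKM in control libraries, and Ttc9b averaged 18.8 ± 2.13 and 22.7 ± 1.17 FPKM in the same order of groups (SD, n = 3 each). The glutamate receptor subunit gene Gria2 averaged 59.6 ± 2.00 FPKM in DKO libraries and 56.3 ± 1.03 FPKM in control libraries (SD, n = 3 each). Scamp5, a gene of secretory membranes, averaged 180 ± 2.07 FPKM in DKO libraries and 178 ± 4.98 FPKM in control libraries (SD, n = 3 each). Genes that share the core therefore lay on both sides of 0. This search was added after the data had been seen.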

How the data were processed

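RNA was extracted with TRIzol and made into TruSeq stranded mRNA libraries, per the labels' protocols. The authors deposited 1 table per library with values in FPKM, per the file headers. There the columns of the DKO libraries carry the letters CKO, which differ from the DKO of their labels. Per the submitters' processing notes, TopHat2 2.1.1, Bowtie2 and Cuffdiff 2.2.1 were used with the mouse build mm10. The gene models, the filters and any scaling across libraries were not given in the sources used here.

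Rows whose mean over the 6 libraries reached 1 FPKM were compared as log2(FPKM + 1) in limma 3.58.1 (R 4.3.3; lmFit, eBayes with a trend, 2-sided), DKO minus control, with Benjamini-Hochberg adjustment over all 13215 rows and a threshold of 0.05. The fit was also run on simulated rows drawn independently of each other. Such rows hold no effect shared within a library, so the run cannot show how the fit behaves on these libraries. Read totals are unknown; steps between low values gave depths of 0.956 to 1.24 relative to DKO replicate 1. The titles number 3 brains per group and name no litters or batches. P-values measure only the spread between these libraries, part of which may be technical.

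The genes and lists were chosen with earlier results of these data known. Named by rule were the 10 genes and the 2 of smallest p in each pathway list (4 for RE1 genes) where none passed. So were the microRNA rows and hosts, the 3 genes most like Rest and the first 3 markers of each list. Aurkb, Emx1, Kdr, Pou4f1 and Gm10516 were also named, outside this rule and with their values known. Gene positions and 3′ UTR sequences came from GENCODE M21, which uses GRCm38 as mm10 does. Mature microRNA sequences, miR-26 hairpin positions and promoter windows came from RefSeq. One host symbol of Mir9-3 was corrected to AI854517 from the annotation after the data had been seen. Python 3.11.15 with pandas 2.3.3 was used. The alternatives were other pseudocounts (0.1 and 0.5), no filter on low values or one of 5 FPKM, quantile normalization, median-of-ratios scaling, short RNA rows left out, eBayes without a trend or robust, arrayWeights, a replicate block, and each library left out.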

Additional observations from a re-analysis of the deposited data

How the results depend on the processing

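Under 17 alternatives none of the 10 genes passed the threshold (lowest adjusted p 0.596, limma with Benjamini-Hochberg), and 156 of 169 values kept their direction, the other 13 being reversed. Rcor2, Ctdsp1, Kdm1a and Hdac2 kept theirs throughout. Hdac1 turned to 0.0090 with quantile normalization and 0.058 with arrayWeights. Over the fits that left out single libraries, log2 fold changes ran from -0.084 to 0.051 for Rest, -0.025 to 0.10 for Rcor1, -0.086 to 0.017 for Rcor3, -0.064 to 0.041 for Ctdsp2, -0.089 to 0.018 for Ctdspl and -0.081 to 0.064 for Hdac1. Among all rows 3 were called, 1 with eBayes without a trend, and 1 to 4 when single libraries were left out, the 1 without control replicate 2. The count in each pathway list and among RE1-core genes was 0 in every alternative run.

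Other named genes turned sign, all uncalled, with arrayWeights (Mir124a-1hg -0.011, Zc2hc1c -0.048, Fam163b 0.060, Robo2 -0.000089, Gm10516 -0.035) and without short RNA rows (Zc2hc1c -0.0060, Robo2 -0.0022, Gm10516 -0.0017). Without single libraries the ranges were -0.053 to 0.11 for Mir124a-1hg, -0.045 to 0.11 for AI854517, -0.24 to 0.0031 for C130071C03Rik, -0.053 to 0.061 for Zc2hc1c, -0.092 to 0.043 for Fam46a, -0.11 to 0.013 for Tex10, -0.14 to 0.17 for Fam163b, -0.078 to 0.0075 for Fbll1, -0.0038 to 0.055 for Lca5, -0.031 to 0.058 for Robo2, -0.0029 to 0.035 for Scamp5, -0.069 to 0.027 for Srrm4 and -0.18 to 0.18 for Gm10516. The cause was not tested.

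Replicate numbers were not taken as pairs: libraries of one number had deviations with r = 0.072, 0.0063 and 0.10, and not every library correlated best with its own number. With the replicate block 2 rows were called and no call of a gene named here changed. The planned count of miR-124 words in 3′ UTRs was not run, as the reference used here has no entry for that microRNA. FPKM carry no read totals, so intervals rest on 3 libraries a group.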
